A study of Staurois parvus with 11 samples.

Results

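Brain was compared with leg muscle in adult males of Staurois parvus, a frog whose males raise and wave a hind leg when they compete for mates. Members were chosen by the tissue label alone: 2 brain libraries and 5 leg muscle libraries, which are 7 of the 11 RNA-seq libraries of the series (the other 4 are spinal cord). Each brain library comes from a whole brain and each leg muscle library from the thigh muscles of a hind leg. All frogs were captive-raised, untreated adult males of a zoo colony, so the labels give no difference between the groups besides tissue. The libraries are labelled biological replicates, but no frog is named, and frogs that gave both tissues cannot be recognised. The p-values therefore measure a spread between samples. That spread was estimated over all 11 libraries, spinal cord included, because 2 brains alone give a poor estimate of it.

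A brain is built of neurons, which signal through synapses, and of glia, which insulate axons and clear transmitter. A limb muscle is built of fibers packed with sarcomeres, in which myosin pulls on actin once calcium leaves the sarcoplasmic reticulum, and the fibers refill their ATP from creatine phosphate, glycolysis and mitochondria. Both are bulk tissues here, so fewer cells of a type and less RNA per cell cannot be told apart.

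Levels are in CPM, the usual unit of counts relative to library size, scaled by TMM factors (a trimmed mean of log ratios), which bring the bulk of transcripts level between libraries. They are not corrected for transcript length, so levels are compared between tissues within a transcript. Log2FC is brain over leg muscle, positive where brain was higher. A transcript was called a DEG at an adjusted p under 0.05 in edgeR's quasi-likelihood test, with Benjamini-Hochberg adjustment over the 13923 transcripts tested. All adjusted p-values below come from that test, and a value after ± is the SE of a Log2FC.

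In brain, 15728514 and 22686688 reads were counted, which was 24.7% and 26.5% of all entries. In leg muscle, counted reads ranged from 31242008 to 56082082 and made up 41.1% to 44.5% of entries. The 10 most abundant transcripts took 4.55% and 5.93% of counted reads in the brain libraries, and between 39.3% and 53.7% in the leg muscle libraries. TMM factors were 2.09 and 1.57 for brain and 0.389 to 0.752 for leg muscle, highest in leg muscle 5. Without these factors, on library totals alone, the median Log2FC of all transcripts was 1.96 in place of 0.11, and calls went from 4001 higher in brain and 3054 higher in leg muscle to 8805 and 930. With the factors, 28.7% of tested transcripts were higher in brain and 21.9% higher in leg muscle, and these are the shares against which each gene group is read. Of the calls, 2604 in brain and 1928 in leg muscle were at least 4-fold, and 1550 and 852 were at least 16-fold. No read was found in leg muscle for 293 of those higher in brain, nor in brain for 97 of those higher in leg muscle, and 4264 transcripts exceeded 10 CPM in both tissues.

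**Figure D1:**
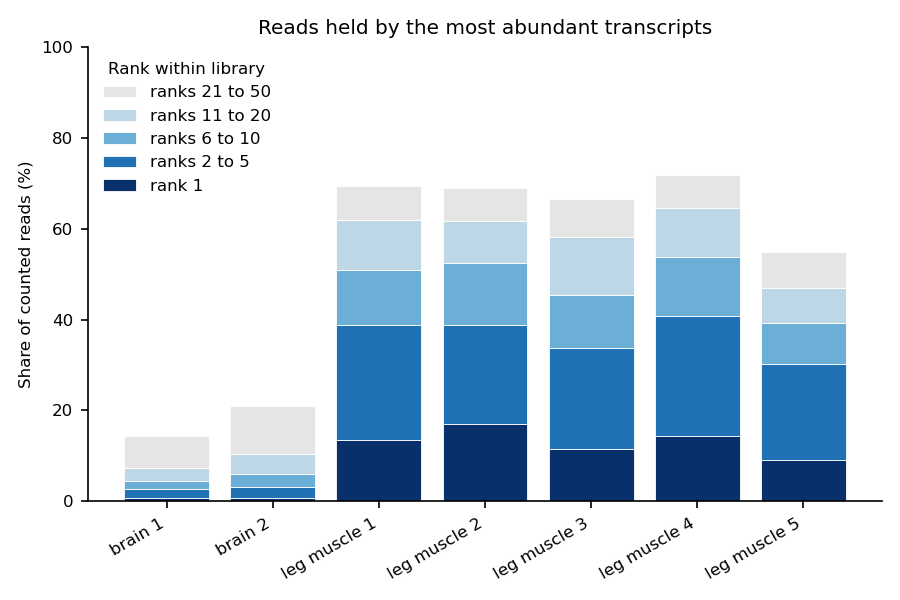
Share of counted reads (percent, vertical axis) held by the most abundant transcripts of each library (horizontal axis: 2 brain and 5 leg muscle libraries), stacked by rank within the library. The 10 most abundant hold 4.55% and 5.93% of the reads in brain and 39.3% to 53.7% in leg muscle.

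The tissue labels matched the defining markers. Stmn2, a microtubule regulator of neurons, stood at 656 and 614 CPM in the brain libraries and at 0.06 to 4.34 CPM in leg muscle. The muscle creatine kinase CKM stood at 119585 to 440468 CPM in leg muscle and at 9.75 and 152 CPM in brain. Of the 7 neuronal markers that the annotation names, 6 were higher in brain and the exception was SNAP25, a synaptic fusion protein, whose annotated transcript reached only 3.04 and 2.77 CPM in brain (adjusted p = 0.059, and 0.017 without leg muscle 4). All 5 annotated markers of muscle fibers were higher in leg muscle.

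Some libraries stood apart from the others of their tissue. In leg muscle 5 the fibroblast and matrix genes took 2.72% of counted reads, against 0.12% to 0.33% in the other leg muscle libraries. Brain 1 and brain 2 differed in pituitary genes, at 0.27% and 0.03% of reads, and in cytosolic ribosomal proteins, at 9.97% and 20.6%. The 10 most abundant leg muscle transcripts were all higher in brain 2 than in brain 1, by 1.44 to 30.8 times, and reached at most 0.55% of their leg muscle mean in brain 1 and at most 0.79% in brain 2. How far these differences shape the results was not tested separately, but each brain was left out in turn. Thick filament and M-band genes had a median Log2FC of -7.96 with both brains, -7.78 without brain 1 and -10.67 without brain 2. For thin filament and Z-disc genes the medians were -8.29, -8.65 and -9.06.

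Among the transcripts with the lowest p, those higher in brain were held at nearly the same level in both brains and close to absent in every muscle. MMP24, a membrane-bound matrix metalloproteinase known from mouse neurons, stood at 57.9 and 70.4 CPM in brain. In leg muscle it stood at 1.14, 0.954, 0.914, 1.06 and 0.926 CPM, so brain was 64.2 times higher (adjusted p = 6.1e-08). JPH4, a junctophilin that ties the plasma membrane of neurons to their calcium stores, had 87.9 and 81.4 CPM in brain and a single read over the 5 leg muscles. From the reads that is a ratio of 7829 to 1 after scaling, with a counting interval (95%, exact) from 1405 to 309266. EPS8, a regulator of actin filaments, stood at 188 and 184 CPM against 2.28 to 4.08 CPM. LRRTM3, a synaptic adhesion protein, stood at 43.8 and 53.7 CPM against 0.89 to 1.34 CPM.

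The lowest p among transcripts higher in leg muscle belonged to PDLIM5, a PDZ and LIM protein of the sarcomere's Z-disc. It stood at 191, 263, 186, 309 and 151 CPM in leg muscle and at 0.43 and 0.53 CPM in brain, a Log2FC of -8.83 ± 0.57 (adjusted p = 3.9e-07). NMRK2, a muscle kinase that makes an NAD precursor from nicotinamide riboside, had 82.8 to 146 CPM against 0.70 and 1.20 CPM. The RNA-binding protein rbm24, a splicing regulator of muscle in mouse, had 148 to 274 CPM against 3.49 and 4.54 CPM. Ide, a protease that degrades insulin, was 11.3 times higher, at 157 to 202 CPM against 15.8 and 15.9 CPM. SERPINF1, a secreted serpin, had 138 to 392 CPM against 0.64 and 0.53 CPM. Genes of this paragraph and the last were chosen for a low p and for libraries that do not overlap between the tissues, so both are a description.

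Most transcripts of the synapse were higher in brain. Of 27 synaptic vesicle and release genes, 25 were higher in brain and none in leg muscle, with a median Log2FC of 6.58 beside 0.11 for all transcripts. Of 22 glutamate receptor and postsynaptic genes, 20 were higher in brain, and of 11 GABA and glycine genes all 11 were. Here slc32a1, which loads GABA and glycine into vesicles, stood at 293 and 260 CPM in brain. In leg muscle it had 0.15, 0, 0, 0 and 0.17 CPM, a Log2FC of 11.96 ± 0.66 (adjusted p = 1.8e-07). GAD1, which makes GABA from glutamate, had 172 and 93.3 CPM against 0 to 0.30 CPM. STX1A, the membrane SNARE of vesicle fusion, had 328 and 402 CPM against 1.77 to 5.05 CPM, and DNM1, the dynamin of vesicle retrieval, had 364 and 273 CPM against 6.64 to 12.2 CPM.

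On the receiving side, CAMK2B, a calcium-calmodulin kinase of the postsynapse, stood at 137 and 103 CPM in brain and at 0.46, 0.32, 0.12, 0.34 and 0.72 CPM in leg muscle. Its Log2FC was 8.22 ± 0.41 (adjusted p = 1.2e-07). Gabbr1, a subunit of the metabotropic GABA receptor, kept a low level in muscle, at 6.01 to 10.2 CPM against 334 and 308 CPM in brain. The kainate receptor GRIK4 had 51.1 and 46.3 CPM against 1.58 to 2.61 CPM. Gabrb2, a subunit of the GABA-gated chloride channel, had 27.2 and 19.8 CPM and 1 read in the 5 leg muscles.

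Channels and the cytoskeleton of neurons followed the same order. Of 34 neuronal ion channel genes, 31 were higher in brain and 1 in leg muscle. Those higher in brain included the sodium channel subunit SCN3B (128 and 161 CPM against 0.08 to 0.67 CPM) and the fast potassium channel KCNC2 (82.6 and 87.2 CPM against 0 to 0.34 CPM). Of 25 genes for neuronal cytoskeleton and RNA-binding proteins, 23 were higher in brain. The neurofilament protein INA had 251 and 204 CPM against 0 to 0.34 CPM, and DPYSL2, which guides microtubules in growing axons, had 648 and 567 CPM against 16.3 to 31.0 CPM. Of 24 axon guidance and adhesion genes, 17 were higher in brain, with a median Log2FC of 3.36, and 7 were not called. Among those called, CNTN2, an adhesion molecule of axons, had 37.3 and 28.7 CPM against 0.08 to 0.89 CPM, and the myelin-signal receptor Rtn4r had 120 and 148 CPM against 0 to 1.09 CPM.

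**Figure D2:**
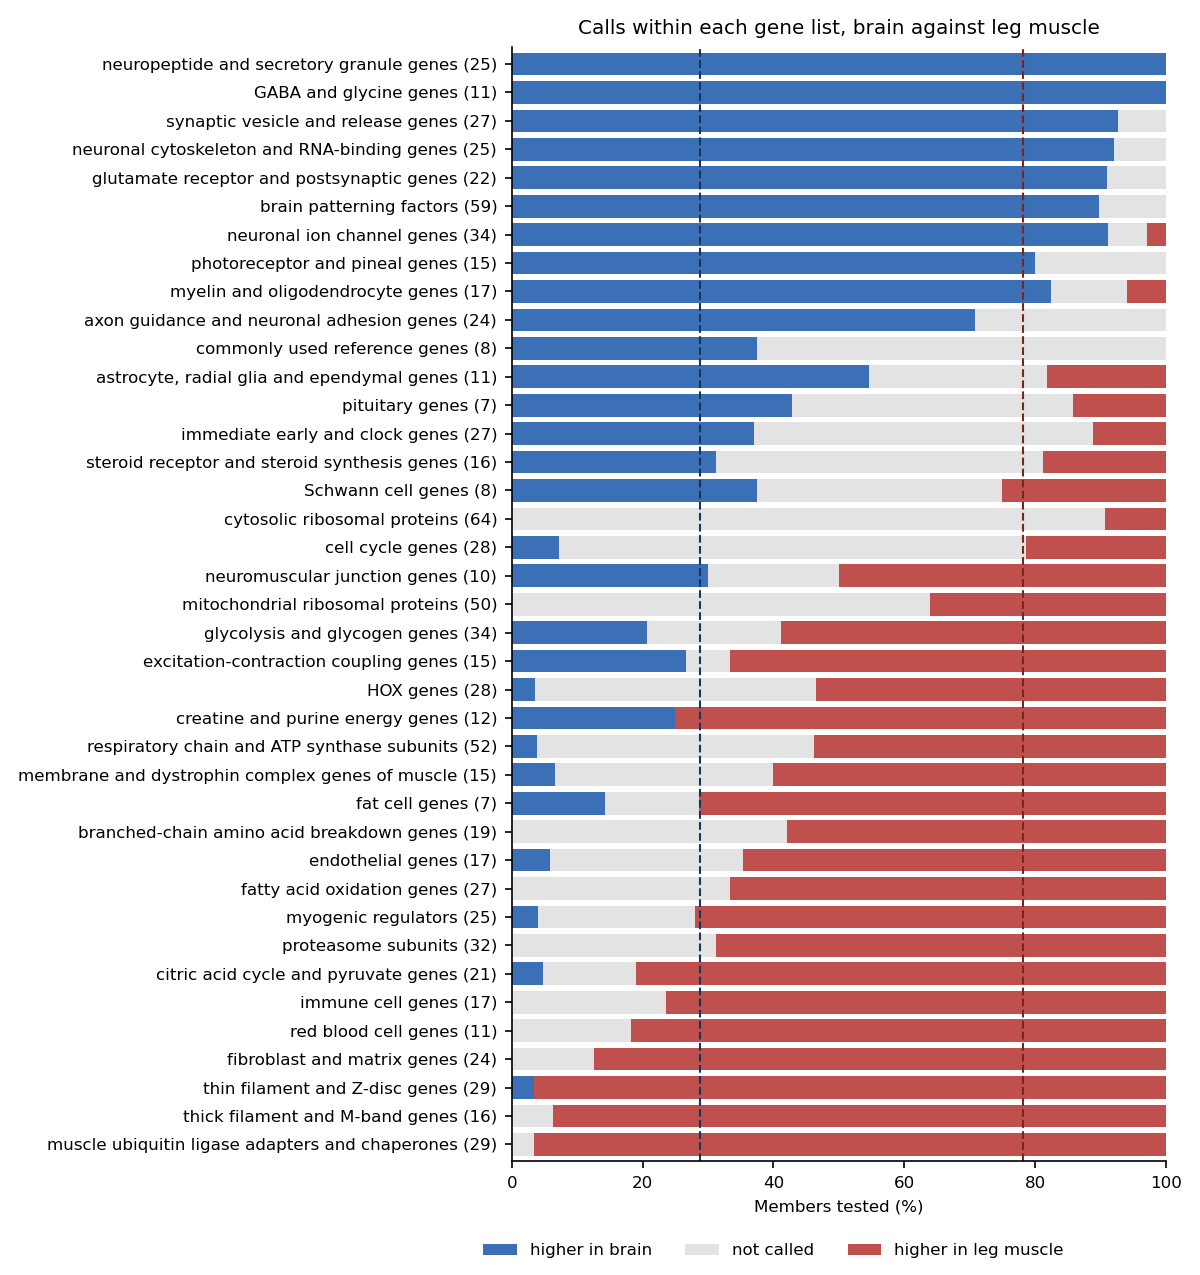
Members of each of 39 gene lists (vertical axis) as percent of the members tested (horizontal axis), divided into higher in brain, not called and higher in leg muscle at an adjusted p under 0.05, with the number tested after each name. Dashed lines mark the shares over all transcripts, 28.7% higher in brain (from the left) and 21.9% higher in leg muscle (from the right).

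All 25 neuropeptide and secretory granule genes tested were higher in brain, with a median Log2FC of 8.43 (7.83 with a gene of no leg muscle read set at its lower bound). Peptides of a few small cell groups could be read at this depth. VIP, a peptide of interneurons and of the clock nucleus in mammals, stood at 40.4 and 38.4 CPM and PDYN, the dynorphin precursor, at 29.5 and 22.7 CPM, against at most 0.25 and 0.30 CPM in leg muscle. Outside the rule for naming, npy, NTS and CCK were picked after their values were seen. The feeding peptide npy stood at 481 and 944 CPM against 0.06 to 3.81 CPM, and NTS, the neurotensin precursor, at 202 and 695 CPM against 0 to 0.63 CPM. CCK, a peptide of gut and brain, stood at 174 and 363 CPM in brain. It was at 14.1 CPM in leg muscle 3 and at 0.08 to 1.45 CPM in the other muscles, and its Log2FC was 6.35 ± 1.31 (adjusted p = 0.0018).

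The brains differed in pomc, the precursor of ACTH and melanotropin. It stood at 1275 CPM in brain 1 and 127 CPM in brain 2, while leg muscle had 0, 0, 0, 0.04 and 0.55 CPM, so the groups did not overlap but the SE was wide (Log2FC 12.23 ± 1.66, adjusted p = 9.1e-05). The shared hormone subunit cga went the other way, at 6.83 and 39.0 CPM, and so did prolactin, PRL, at 0.06 and 16.3 CPM, which did not pass the filter on low counts. Of the 7 pituitary genes tested, 3 were higher in brain and 1 in leg muscle, and the leg muscle call was lost with brain 1 or brain 2 left out. The direction of this list turned with DESeq2, by which 1 was higher in brain and 2 in leg muscle. How much pituitary each brain sample carried was not tested.

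Photoreceptor genes were read in the brain samples. Of 15 photoreceptor and pineal genes, 12 were higher in brain and none in leg muscle. The filter on low counts can be passed through 2 libraries, so reads in both brains are enough to enter the test. With 10 counts required in 5 libraries of the series, 7 of these genes were tested and 4 were higher in brain. That filter can still be met by brain and spinal cord libraries alone. With DESeq2, 9 of the 15 were higher in brain. The cone arrestin arr3 had 20.6 and 41.3 CPM against 0 to 0.17 CPM, and RPE65, the isomerase that regenerates visual pigment, had 6.498 and 13.4 CPM against 0.23 to 0.97 CPM. Both genes were higher in brain 2 than in brain 1. Eye, pineal and deep brain sources were not told apart.

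Brain and muscle also differed in the genes that give tissues their position in the body. Of 59 brain patterning factors, 53 were higher in brain and none in leg muscle, with a median Log2FC of 8.21 (7.87 with 10 genes set at their lower bound). With 10 counts required in 5 libraries of the series, 43 were tested and 37 were higher in brain. Brain and spinal cord libraries together can meet this filter without a leg muscle read, so it does not remove entry through nervous tissue. The neural progenitor factor sox2 had 132 and 222 CPM against 0.46 to 0.93 CPM (Log2FC 8.12 ± 0.39, adjusted p = 9.0e-08). Otp, which specifies neuroendocrine cells of the hypothalamus in mouse, had 41.1 and 42.0 CPM in brain and 1 read over the 5 leg muscles. The neuronal bHLH factor bhlhe22 had 23.7 and 25.9 CPM against 0 to 0.08 CPM.

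HOX genes, which mark position along the trunk and limb, lay on the other side. Of 28 tested, 15 were higher in leg muscle and 1 in brain, with a median Log2FC of -3.98 (-3.16 with 7 genes set at a bound). The split followed the paralog group, the number that ranks a HOX gene from head to tail. In groups 1 to 4, 2 of 9 genes were higher in leg muscle and 1 in brain. In groups 5 to 13, 13 of 19 were higher in leg muscle and none in brain. Those of groups 5 to 13 not called had at most 4 reads in brain and at most 12 in leg muscle. The filter on low counts used all 11 libraries, so reads in spinal cord could bring such genes into the test. With brain and leg muscle fitted alone, 19 HOX genes were tested, 14 higher in leg muscle and 0 in brain. HOXA7 stood at 2.05, 4.26, 3.60, 2.29 and 3.79 CPM in leg muscle and had no read in brain, so it was at least 73.1 times higher (against 3 reads over both brains). HOXB6 had no read in brain either and 1.46 to 2.97 CPM in leg muscle, at least 46.1 times higher. HOXC4 had 35.2 to 111 CPM against 0.55 and 0.25 CPM (Log2FC -7.20 ± 0.81, adjusted p = 2.2e-05). Hoxc10, a gene of hind limb position in mouse, was picked after its values were seen, with a mean of 88.6 CPM in leg muscle against 0.22 CPM in brain (adjusted p = 0.00018). The gene higher in brain was hoxd3, at 4.49 and 2.77 CPM against 0.68 to 2.65 CPM (Log2FC 1.46 ± 0.41, adjusted p = 0.012, and 0.15 without brain 1). HOX genes of a cluster lie side by side and can share reads at their overlaps, and most were low, so this is a description of 28 linked genes.

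**Figure D3:**
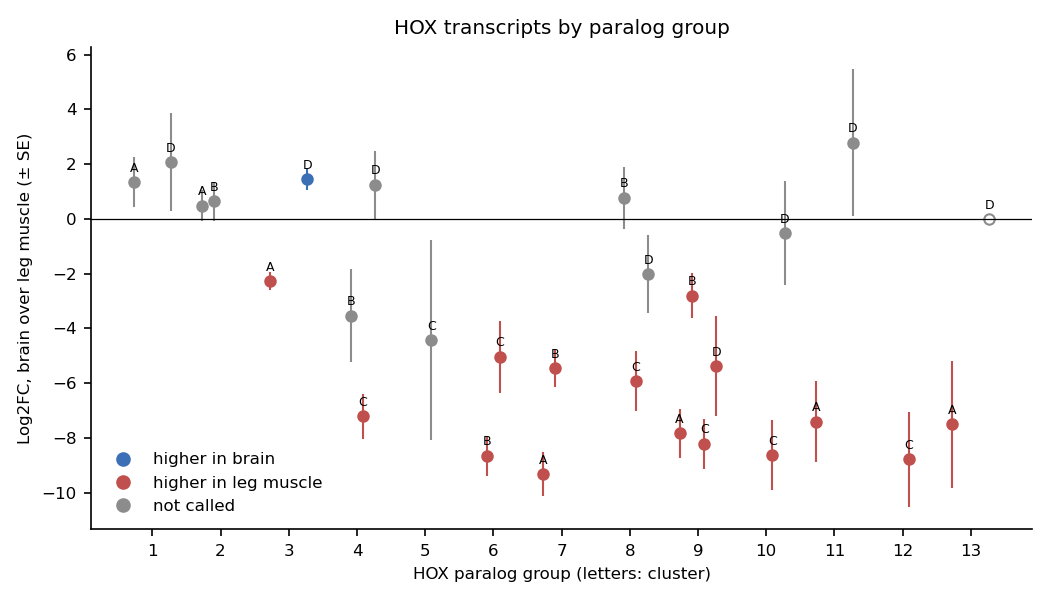
Log2FC (brain over leg muscle, vertical axis) of 28 HOX transcripts against paralog group (horizontal axis, 1 to 13). Colour gives the call at an adjusted p under 0.05, letters the cluster and bars the SE, and the open point with no bar is HOXD13, which had no read in either tissue. Points of genes with no read in 1 tissue are fitted values and no bounds. Of the 19 genes in groups 5 to 13, 13 are called higher in leg muscle, and of the 9 in groups 1 to 4, 2 are.

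The myelin and oligodendrocyte list had 17 genes, of which 14 were higher in brain and 1 in leg muscle. The lineage factor Olig1 had 17.1 and 25.3 CPM in brain and 1 read in the 5 leg muscles, and OLIG2 had 25.5 and 24.1 CPM against 0 to 0.29 CPM. The myelin basic protein mbp, which Schwann cells of nerve also use, had 837 and 1402 CPM in brain but 66.8, 135, 50.5, 61.0 and 257 CPM in leg muscle (Log2FC 3.30 ± 0.56, adjusted p = 0.00049). The myelin gene on the muscle side was PMP2, a lipid-binding protein of peripheral myelin, at 268 to 601 CPM against 19.2 and 122 CPM (Log2FC -2.36 ± 0.77, adjusted p = 0.023, and 0.13 without brain 1). Of 8 Schwann cell genes 3 were higher in brain and 2 in leg muscle. These shares (37.5% and 25.0%) were not far from those of all transcripts (28.7% and 21.9%). Several Schwann cell genes also serve oligodendrocytes: sox10, a factor of both cell types, had 33.2 and 30.8 CPM in brain against 9.67 to 19.3 CPM. PRX, periaxin of Schwann cells, had 2.36 to 9.85 CPM in leg muscle against 0.21 and 0.22 CPM (adjusted p = 0.018, and 0.11 with either brain left out).

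Of 11 astrocyte, radial glia and ependymal genes, 6 were higher in brain and 2 in leg muscle. The leg muscle share of 18.2% was near the 21.9% of all transcripts. With every transcript of a symbol counted, 13 of 21 were higher in brain and 2 in leg muscle. SLC1A3, the glutamate transporter of astrocytes and radial glia, had 325 and 283 CPM in brain against 0.08 to 0.70 CPM, and the radial glia factor Hes5 had 7.10 and 18.4 CPM and no read in leg muscle, at least 393 times higher in brain (against 3 reads over the leg muscles). Aqp4 is the main water channel of astrocytes in mammals and is also found in fast muscle fibers. Its most abundant transcript had no read in either brain and 159, 128, 121, 162 and 49.3 CPM in leg muscle, so it was at least 2834 times higher there. The folate enzyme aldh1l1, an astrocyte marker in mammals, was also higher in leg muscle, at 7.37 to 44.2 CPM against 2.13 and 2.63 CPM (Log2FC -3.58 ± 0.84, adjusted p = 0.0040, and 0.051 without brain 1).

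The most abundant transcripts of leg muscle serve contraction and its energy supply. CKM took 8.99% to 17.1% of all counted reads there, as the most abundant transcript of each leg muscle library. ALDOA, the aldolase of muscle glycolysis, followed with a leg muscle mean of 178729 CPM, then ATP2A1, the calcium pump that refills the sarcoplasmic reticulum, with 147010 CPM, and MYLPF, the regulatory light chain of fast myosin, with 104783 CPM. Of 16 thick filament and M-band genes, 15 were higher in leg muscle, and of 29 thin filament and Z-disc genes, 28 were. TTN, the giant spring of the sarcomere, stood at 61541, 67201, 42471, 65727 and 34786 CPM in leg muscle and at 0.49 and 1.18 CPM in brain (Log2FC -15.98 ± 2.41, adjusted p = 0.00020). MYOM1, which links thick filaments at the M-band, had 577 to 2229 CPM against 0.09 and 0.20 CPM. The thin filament gene on the brain side was NEBL, the nebulin-related protein nebulette, at 0.97 and 0.62 CPM against 0 to 0.24 CPM (Log2FC 2.83 ± 0.92, adjusted p = 0.023, and 0.17 and 0.071 without brain 1 or brain 2).

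Calcium buffers and the calcium sensor of the thin filament were among the most abundant as well. The annotation names parvalbumins, the soluble calcium buffers of fast fibers, by a related frog: the most abundant form of the beta type had 29725 to 87037 CPM in leg muscle against 2.16 and 66.3 CPM in brain (Log2FC -10.89 ± 2.16, adjusted p = 0.0014). Of the alpha type, the annotated transcript had 25175 to 62949 CPM against 41.5 and 120 CPM. Tnnt3, the fast troponin T that anchors the troponin complex, had 24068 to 87616 CPM against 2.28 and 36.2 CPM. CALB2, the calcium buffer calretinin of neurons, lay on the other side, at 84.2 and 72.2 CPM in brain against 3.04 to 12.9 CPM. In each of these muscle transcripts leg muscle 5 was the lowest of its tissue and brain 2 was above brain 1.

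No transcript took as large a share of brain. CLU, the secreted chaperone clusterin, was the most abundant on average, at 2672 and 3216 CPM, or 0.56% and 0.51% of the reads, against 114 to 570 CPM in leg muscle (Log2FC 3.41 ± 0.51, adjusted p = 0.00019). The glycolytic enzyme eno1, the enolase of most tissues, was also higher in brain, at 2966 and 2187 CPM against 529 to 830 CPM. A transcript named for an acyl-CoA-binding protein, a carrier of fatty acyl groups whose fragments act on GABA receptors in mammals, stood at 1232 and 4055 CPM against 14.7 to 36.5 CPM (Log2FC 6.76 ± 0.52, adjusted p = 1.1e-06). Of the 10 most abundant of brain, 5 coded for ribosomal proteins, and each of those was higher in brain 2 than in brain 1 and was not called.

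Both members of a thick filament pair were higher in leg muscle. Fast-type Mybpc2 had 8406 to 31488 CPM in leg muscle against 0.58 and 2.47 CPM in brain, while the slow-type MYBPC1 had 161 to 646 CPM against 25.3 and 21.9 CPM in brain (Log2FC -3.74 ± 0.84, adjusted p = 0.0030). Mybpc2 and MYBPC1 were picked after their values were seen. Library 5 had the lowest leg muscle level of CKM, TTN, MYLPF and MYOM1.

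**Figure D4:**
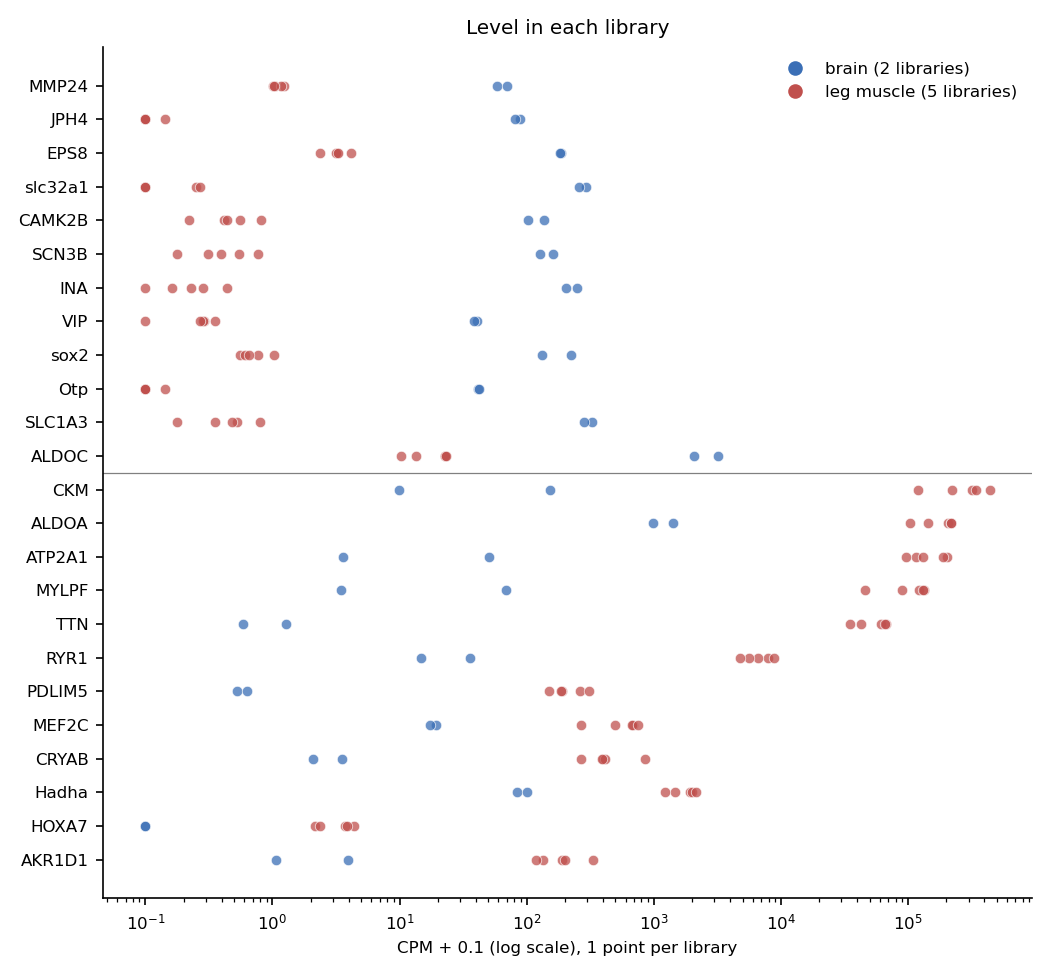
CPM in each library (horizontal axis, log scale after adding 0.1) of 24 transcripts (vertical axis) with 2 brain points and 5 leg muscle points each, 12 from the brain side and 12 from the leg muscle side. Brain and leg muscle points do not overlap for any transcript shown, but MMP24, JPH4, EPS8 and PDLIM5 were chosen by a rule that asks for this. Of all 13923 transcripts tested, 4691 had no overlap with brain higher and 3560 with leg muscle higher. Brain 2 lies above brain 1 for CKM (152 against 9.75 CPM).

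Genes for the parts that start a contraction were mostly on the muscle side. Of 15 excitation-contraction coupling genes, 10 were higher in leg muscle and 4 in brain. The brain share of 26.7% was near the 28.7% of all transcripts. RYR1, the calcium release channel of skeletal muscle, stood at 7928, 6666, 5591, 8831 and 4747 CPM in leg muscle and at 35.6 and 14.6 CPM in brain, a Log2FC of -8.07 ± 0.74 (adjusted p = 4.2e-06). The potassium channel of the reticulum tmem38a had 367 to 975 CPM against 4.40 and 4.40 CPM. On the brain side were ATP2A2, the calcium pump found in most cell types (Log2FC 1.62 ± 0.29), the IP3 receptor ITPR1 (1.83 ± 0.38), the mitochondrial calcium uniporter Mcu (1.80 ± 0.32) and fkbp1a, the immunophilin that binds calcium release channels (0.97 ± 0.28), each with an adjusted p of 0.014 or lower. Without brain 1 the adjusted p of ITPR1 was 0.10, and without brain 2 that of fkbp1a was 0.30.

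At the neuromuscular junction, 5 of 10 genes were higher in leg muscle and 3 in brain. The receptor subunits for acetylcholine were on the muscle side: chrna1-a had 25.6, 34.0, 28.5, 38.1 and 18.2 CPM in leg muscle and 1 read in each brain, a ratio of 990 with a counting interval from 274 to 8179 (adjusted p = 2.9e-06). The subunit chrnb1 had 22.5 to 96.2 CPM and chrne 12.7 to 154 CPM, each with a single brain read, and chrne lies in more than 1 annotated copy, so its reads may be divided. On the brain side were the nerve-derived signal NRG1 (20.2 CPM on average against 1.45), the nuclear anchor SYNE1 (436 against 72.0) and ACHE, which breaks down acetylcholine (149 against 59.0 CPM). Without brain 1, SYNE1 and ACHE were not called (adjusted p = 0.057 and 0.15). On library totals alone this list had more members higher in brain than in leg muscle.

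The dystrophin complex, which ties the cytoskeleton of a fiber to the matrix around it, was on the muscle side in part: of 15 genes of the muscle membrane, 9 were higher in leg muscle, 1 in brain and 5 were not called. SGCE, a sarcoglycan of that complex, had 462 to 905 CPM in leg muscle against 2.95 and 7.65 CPM in brain (Log2FC -6.90 ± 0.63, adjusted p = 4.2e-06). trim72, which patches tears of the muscle membrane in mouse, had 417 to 901 CPM against 0.46 and 0.62 CPM, and cavin4, a coat protein of muscle caveolae, had 89.4 to 199 CPM against 2.46 and 1.26 CPM. The call on the brain side was lost without brain 1.

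Regulators of muscle fate were on the muscle side in 18 of 25 cases. MEF2C, a partner of the myogenic factors, stood at 269 to 757 CPM against 19.4 and 17.3 CPM (Log2FC -4.97 ± 0.48, adjusted p = 6.0e-06). myf5, the early myogenic factor and satellite cell marker, had 15.98 to 25.3 CPM and no brain read. The other satellite cell marker went the other way. PAX7, which also patterns the midbrain roof, stood at 4.92 and 3.03 CPM in brain and at 1.07, 0.38, 0.61, 1.44 and 0.59 CPM in leg muscle (Log2FC 2.27 ± 0.75, adjusted p = 0.024, and 0.20 and 0.064 without brain 1 or brain 2).

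Each list of energy genes had more members higher in leg muscle than in brain. Of 34 glycolysis and glycogen genes, 20 were higher in leg muscle and 7 in brain. Of 12 creatine and purine genes, 9 were higher in leg muscle, among them AMPD1, which deaminates AMP in contracting muscle, at 5 brain reads and a leg muscle mean of 187 CPM, and AK1, which balances adenine nucleotides, at 4288 against 170 CPM. With every transcript of a symbol counted, 10 of 20 were higher in leg muscle and 7 in brain, and the median Log2FC went from -4.43 to -0.39. The 3 genes on the brain side were CKMT1, AMPD2 and PNP, of which CKMT1, the mitochondrial creatine kinase of most tissues, had 324 and 255 CPM against 0.30 to 2.86 CPM (Log2FC 7.70 ± 0.69, adjusted p = 3.5e-06). Of 21 citric acid cycle and pyruvate genes, 17 were higher in leg muscle, and of 27 fatty acid oxidation genes 18 were, with none higher in brain. On library totals alone the citric acid list had 5 in leg muscle and 4 in brain, and the fatty acid list 9 and 4. Hadha, of the mitochondrial trifunctional protein, stood at 1754 CPM on average in leg muscle against 92.7 in brain (Log2FC -4.24 ± 0.40, adjusted p = 4.9e-06), and ogdh, of the oxoglutarate dehydrogenase complex, at 889 against 90.8 CPM. ACADM, which starts the breakdown of medium-chain fatty acids, had 733 to 1279 CPM in leg muscle against 50.9 and 68.6 CPM, and IDH2, the mitochondrial isocitrate dehydrogenase, 1924 to 8922 CPM against 359 and 475 CPM. The gene of the citric acid cycle list on the brain side was PC, pyruvate carboxylase, which refills the cycle, at 9.26 and 4.29 CPM against 0.97 to 3.29 CPM (Log2FC 1.84 ± 0.47, adjusted p = 0.0065, and 0.19 without brain 1). On the glycogen side, brain had more of PYGB, the brain form of glycogen phosphorylase, at 651 and 450 CPM against 20.5 to 38.5 CPM (Log2FC 4.17 ± 0.30, adjusted p = 8.6e-07).

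Respiratory chain subunits had a median Log2FC of -1.41. Of 52, 28 were higher in leg muscle, 22 were not called, and COX6A1 and Cox4i1 were higher in brain. Cox4i1 was not called without brain 2 (adjusted p = 0.37), leg muscle 3 (0.052) or leg muscle 4 (0.057). COX6A1 is the form of its cytochrome oxidase subunit found in most tissues, and it stood at 318 and 763 CPM in brain against 41.2 to 97.3 CPM in leg muscle (Log2FC 3.06 ± 0.37, adjusted p = 4.1e-05). The core subunit NDUFS1 had 1364 CPM on average in leg muscle against 131 in brain. The transcript annotated Cox7a2 was on the muscle side, at 36.0 to 202 CPM against 0.06 and 0.64 CPM. On library totals alone the direction of this list turned, as it did for the lists of branched-chain amino acid breakdown (11 of 19 higher in leg muscle with TMM) and mitochondrial ribosomal proteins (18 of 50). Without brain 1 the respiratory chain count was 15, that of branched-chain breakdown 4 and that of mitochondrial ribosomal proteins 5. Without brain 2 they were 37, 7 and 20.

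Several enzymes are made from paralogous genes, copies that arose by duplication, with a form known for muscle and a form known for brain or most tissues. Of 32 pairs listed, both members were tested for 14, and the rest lacked an annotated or tested member. In 9 of the 14 the brain or general form was higher in brain and the muscle form higher in leg muscle. Each member was compared between tissues, so this does not say which form was more abundant within a tissue. In aldolase, ALDOC, the brain form, stood at 3219 and 2073 CPM in brain against 10.2 to 23.3 CPM, while ALDOA stood at 982 and 1409 CPM in brain against 103876 to 220149 CPM. Their Log2FC were 7.16 ± 0.43 and -7.22 ± 0.95 (adjusted p = 2.7e-07 and 7.1e-05). In phosphofructokinase, which commits sugar to glycolysis, PFKP was higher in brain (180 and 134 CPM against 2.82 to 6.32) and PFKM in leg muscle (10562 to 25197 CPM against 87.5 and 75.4). Syp, a membrane protein of synaptic vesicles, had 1318 and 1496 CPM in brain against 1.14 to 7.62 CPM, and its muscle relative SYPL2, a protein of the triad junction, had 346 to 845 CPM against 0.12 and 0.84 CPM.

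The other pairs that switched were the calcium pumps ATP2A2 and ATP2A1, the phosphorylase kinase subunits PHKA2 and PHKA1 and PHKG2 and Phkg1, the AMP deaminases AMPD2 and AMPD1, the filament-capping tropomodulins TMOD2 and Tmod4, and the myosin light chains Myl6 and MYL1. Their brain forms differed less than their muscle forms, by Log2FC of 1.10 to 4.00 against -3.70 to -12.41. Without brain 1 the brain forms AMPD2 and PHKA2 were not called (adjusted p = 0.12 and 0.080), and without brain 2 neither were Myl6 and PHKG2 (0.42 and 0.053). In 5 pairs there was no switch. Among them, the hexokinases HK1 and HK2 were not called (adjusted p = 0.27 and 0.39). Cpt1b and SLC2A4, the muscle forms of a fatty acid carrier enzyme and a glucose transporter, were higher in leg muscle, while CPT1A was not called and SLC2A3 was also higher in leg muscle (adjusted p = 0.025, and 0.14 without brain 2). Where both copies are nearly identical, reads between them cannot be told apart.

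**Figure D5:**
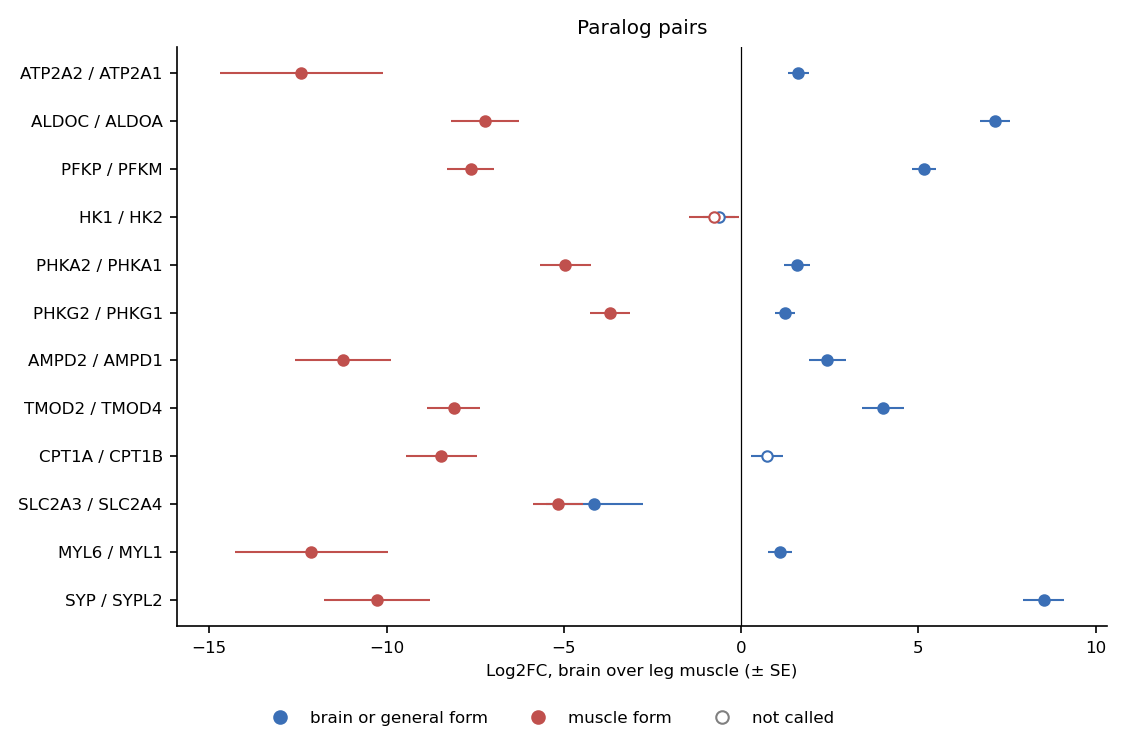
Log2FC (brain over leg muscle, horizontal axis, with SE bars) of both members of 12 of the 14 paralog pairs (vertical axis), the brain or general form in one colour and the muscle form in the other. Filled points are called at an adjusted p under 0.05 and open points are not. In 9 pairs the members are called on opposite sides of 0.

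Of 64 cytosolic ribosomal proteins, 58 were not called, with a median Log2FC of -0.53 (-0.05 without brain 1 and -1.52 without brain 2), and both brains lay far apart in these genes, as given above. The 6 others were higher in leg muscle, a count that was 27 without brain 2, 1 without brain 1, 3 without leg muscle 1 and 2 without leg muscle 2 or leg muscle 4. The exception in size was the transcript annotated Rpl3 that carried the most reads, at 2629 to 8037 CPM in leg muscle against 0.27 and 1.51 CPM in brain (Log2FC -12.21 ± 1.85, adjusted p = 0.00021). Another transcript has the same name, and mammals have a muscle-specific copy of this protein, so the name may not tell them apart. Of 29 muscle ubiquitin ligase adapters and chaperones, 28 were higher in leg muscle, with a median Log2FC of -7.42. ASB10, an adapter that picks targets for a ubiquitin ligase, had 58.9 to 98.0 CPM in leg muscle and 1 read in brain, a ratio of 5480 with a counting interval from 983 to 216479. The small heat shock protein CRYAB had 269 to 856 CPM against 2.00 and 3.42 CPM, and HSPB8, which works with it on damaged filaments, 136 to 307 CPM against 3.006 and 2.94 CPM. Of 32 proteasome subunits, 22 were higher in leg muscle with a median of only -0.96, and psmc5, of the proteasome's ATPase ring, stood at 568 CPM on average against 141 CPM (Log2FC -2.01 ± 0.26, adjusted p = 6.8e-05). Leg muscle 5 held 0.83% of its reads in proteasome subunits against 0.32% to 0.38% in the other 4. In summed CPM this was 11026 against 6259 to 9838. The proteasome count was 9 without brain 1, and 13 with brain and leg muscle fitted alone and leg muscle 5 left out. The ribosomal and proteasome lists turned on library totals alone.

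With TMM scaling, most genes listed for fibroblasts and matrix, immune cells and red blood cells were higher in leg muscle. On library totals alone the leg muscle counts were 15 for fibroblast and matrix, 6 for immune and 2 for red blood cell genes, with none higher in brain. Fibroblast and matrix genes took 0.15% of counted reads in each brain library and 0.12% to 2.72% in the leg muscle libraries. Of 24 fibroblast and matrix genes, 21 were higher in leg muscle and none in brain, and without leg muscle 5 the count was also 21, although the median Log2FC went from -5.79 to -4.81. COL1A2, a chain of type I collagen, was picked after its values were seen, at 116, 161, 172, 1516 and 17716 CPM in leg muscle and 4.92 and 9.44 CPM in brain (adjusted p = 0.017, and 0.12 and 0.094 without brain 1 or brain 2). FBN1, the main protein of microfibrils, had a narrower range, with a leg muscle mean of 715 CPM against 7.74 CPM (Log2FC -6.53 ± 0.58, adjusted p = 3.3e-06). Of 17 immune cell genes, 13 were higher in leg muscle, among them Cd74, of antigen presentation, at 28.0 to 98.3 CPM against 4.19 and 5.21 CPM. Of 11 red blood cell genes 9 were higher in leg muscle, and the beta globin HBB stood at 3330 to 9723 CPM there and at 996 and 2442 CPM in brain (Log2FC -1.91 ± 0.72, adjusted p = 0.043). HBB was not called when any of 5 libraries was left out, with adjusted p = 0.23 without brain 1, 0.051 without brain 2, and 0.069, 0.066 and 0.054 without leg muscle 2, 4 or 5. How much blood each sample held was not tested. Without brain 1 the immune count was 8 and the red blood cell count 5.

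Of 17 endothelial genes, 11 were higher in leg muscle. NOS3, the nitric oxide synthase of vessels, had 77.4 to 170 CPM against 0.88 and 0.95 CPM, while S1pr1, a lipid receptor, was higher in brain, at 15.8 and 19.8 CPM against 1.27 to 2.41 CPM (Log2FC 3.31 ± 0.27, adjusted p = 1.8e-06). The endothelial list also turned on library totals alone, and its count was 7 without brain 1. Of 7 fat cell genes, 5 were higher in leg muscle (3 with either brain left out), among them the fat hormone ADIPOQ at 141 to 441 CPM against 0.03 and 0.78 CPM. Cidea, a lipid droplet protein of brown fat in mouse, was higher in brain, at 15.5 and 18.8 CPM against 0.25 to 0.68 CPM (Log2FC 5.14 ± 0.33, adjusted p = 3.9e-07).

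Steroid genes bear on the study's interest in androgen signaling. The androgen receptor ar was at the edge of detection in both tissues, with 2 reads over both brains and 18 over the 5 leg muscles, and was not called (adjusted p = 0.15). At this depth a difference could not be shown. CYP19A1, the aromatase that turns androgens into estrogens, had 3.006 and 0.98 CPM in brain and no read in leg muscle, so it was at least 61.6 times higher in brain (against 3 reads over the leg muscles). AKR1D1, a reductase of steroid hormones, was higher in leg muscle, at 134, 331, 118, 188 and 199 CPM against 0.97 and 3.84 CPM (Log2FC -6.33 ± 0.81, adjusted p = 5.6e-05). CYP17A1, the enzyme that makes androgen precursors, had 6.16 to 12.9 CPM in leg muscle against 0.43 and 1.63 CPM (Log2FC -3.11 ± 0.64, adjusted p = 0.0018), and the glucocorticoid receptor nr3c1 7.83 to 18.6 CPM against 2.28 and 4.01 CPM (adjusted p = 0.010, and 0.11 without brain 1). The cholesterol carrier star, which feeds steroid synthesis, had 1.00 and 0.84 CPM in brain and no read in leg muscle, at least 28.4 times higher. Over the list, 5 of 16 genes were higher in brain and 3 in leg muscle, shares near those of all transcripts, and 3 were higher in brain without brain 1.

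Of 27 immediate early and clock genes, 10 were higher in brain and 3 in leg muscle. NPAS4, an activity-induced factor of neurons, had 15.9 and 34.2 CPM against 0 to 0.13 CPM, and Egr4 42.0 and 105 CPM against 0 to 0.08 CPM. Clock repressors divided: NR1D2 was higher in leg muscle (10.2 to 21.4 CPM against 3.25 and 3.33) and so was CRY2, while NR1D1 was higher in brain (134 and 129 CPM against 18.8 to 75.3) and so were CRY1, PER1 and PER2. Without brain 1 the last 3 were not called (adjusted p = 0.075, 0.075 and 0.12), and CRY2 was not called without brain 1, brain 2, leg muscle 1 or leg muscle 4 (adjusted p between 0.052 and 0.17). The hour of sampling is not given in the sources used here. Of 28 cell cycle genes 20 were not called, 6 were higher in leg muscle and 2 in brain. The leg muscle share of 21.4% was near the 21.9% of all transcripts, and the brain share of 7.14% was below their 28.7%. On library totals alone the direction of the list turned, with 6 higher in brain and 0 in leg muscle. With the 20 most abundant transcripts also left out, these counts were 3 and 1. The count in leg muscle was 0 without brain 1, 1 without brain 2, 11 without leg muscle 2, 3 without leg muscle 3 and 2 without leg muscle 5. The mitotic motor kif11 had 2.86 to 23.6 CPM in leg muscle, highest in leg muscle 3 and 5, against 0.94 and 0.93 CPM in brain (Log2FC -3.50 ± 0.91, adjusted p = 0.0073, and 0.059 and 0.058 without brain 1 or brain 2). The checkpoint kinase BUB1B was on the other side, at 50.6 and 21.6 CPM in brain against 4.45 to 16.1 CPM (adjusted p = 0.0045, and 0.15 without brain 1).

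Of 8 reference genes, often used to scale expression, 5 were not called, with a median Log2FC of 0.36 over the list. YWHAZ, tbp and HPRT1 were higher in brain and none was higher in leg muscle, and HPRT1 was not called without brain 1 (adjusted p = 0.12). YWHAZ had 391 and 483 CPM in brain against 47.9 to 125 CPM (Log2FC 2.60 ± 0.33, adjusted p = 6.1e-05), and the TATA-binding protein tbp 60.9 and 71.8 CPM against a leg muscle mean of 24.3 CPM. By contrast HSP90AB1, a chaperone among the most abundant transcripts of brain, stood at 2714 and 2760 CPM in brain and 2595 to 3320 CPM in leg muscle, and was not called (Log2FC -0.12 ± 0.32, adjusted p = 0.77). On library totals alone HSP90AB1 was higher in brain.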

How the data were processed

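Whole brain (2 libraries), spinal cord (4) and thigh muscle (5) of adult male frogs were sequenced as 150 bp paired stranded mRNA libraries. The authors aligned the reads with STAR and made the deposited raw counts with htseq-count for each transcript of their own MAKER annotation, named by UniProt match (the htseq-count version, its strand setting and the treatment of shared reads are not given in the sources used here). Reads in no transcript, or in several, are left out, and 66.7% and 70.0% of brain entries fell in none against 49.4% to 52.3% in leg muscle. Intervals and floors cover counting error only.

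Summary lines were dropped. Of 23777 transcript entries, 13955 carry a gene symbol. A fit of all 11 libraries (edgeR 4.0.16 in R 4.3.3, TMM, filterByExpr, glmQLFit and glmQLFTest with the legacy option, tissue as factor) gave the contrast brain minus leg muscle with Benjamini-Hochberg adjustment over 13923 transcripts. SE is Log2FC over the root of F. A list takes a symbol's most abundant transcript. A group with no read was set against 3 reads over the group. Named were, per direction, the 12 annotated transcripts with the lowest p and no overlap of libraries, the 10 most abundant per tissue, up to 4 members of each of 39 lists with the lowest p, up to 3 called against their list, paralog pairs and 7 further symbols, and others are said to be picked after their values were seen, parvalbumins included. Some of the genes so named, and 2 paralog pairs, are counted but not reported here by name. Members and lists were chosen with earlier results of these data known. Alternatives in scaling, filter, tool (DESeq2 1.42.0, limma-voom with limma 3.58.1), samples and replicates were run. The procedure was also run on simulated data in which the tissues had the same composition apart from seeded changes. That simulation therefore cannot test the scaling between tissues as unlike as these. Replicate numbers shared by brain and leg muscle name no frog, so the samples were not treated as paired. No 2 libraries of a tissue agreed within sampling noise.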

Additional observations from a re-analysis of the deposited data

Results flagged for a closer look

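Dixon's test for a value far from the rest of its group was applied to the 5 leg muscle libraries for 194 sets of values (library measures, shares of reads in gene lists, and levels of the genes named), and 25 sets passed the 95% critical value, 16 of them through leg muscle 5. Chance flags about 1 in 20 sets, which would be 9.7 sets, and the sets are not independent.

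Leg muscle 5 stood above the others by this test in its share of reads in 7 lists. Fibroblast and matrix genes took 2.72% of its reads against 0.12% to 0.33% in the others, and proteasome subunits 0.83% against 0.32% to 0.38%. The muscle membrane and dystrophin complex genes took 0.136% (others at most 0.0887%) and the immune cell genes 0.0836% (others at most 0.0299%). Synaptic vesicle genes took 0.0103%, neuronal ion channel genes 0.00965% and glutamate receptor genes 0.00340%. The others had at most 0.00444%, 0.00405% and 0.00159%. These shares are without TMM scaling, whose factor was 0.752 in leg muscle 5 and 0.389 to 0.524 in the others. In summed CPM the muscle membrane list of leg muscle 5 lay within the others (1808 against 1478 to 2281). The rest of these lists were still highest in it, with proteasome subunits at 11026 against 6259 to 9838 CPM. The muscle transcripts CKM, TTN and MYLPF had their lowest leg muscle CPM in this library. By share of reads CKM and MYLPF were lowest there too, but TTN was not (2.61% against 2.23% to 2.77% in the others). Whether the list shares of this library follow from such differences was not tested. Leg muscle 2 had the highest share of counted entries, 44.5%.

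Among single genes, COL1A2 stood at 17716 CPM in leg muscle 5, eno1 at 830 CPM, hoxd3 at 2.65 CPM, pomc at 0.55 CPM and OLIG2 at 0.295 CPM. The 1 read of JPH4, Gabrb2, Olig1 and Otp in leg muscle (0.0421 CPM) was in leg muscle 5 each time, and a lone read against 0 in the others passes this test by construction. Leg muscle 3 was highest for CCK (14.1 CPM), Myl6 (382 CPM), PER1 (14.9 CPM) and nr3c1 (18.6 CPM). Leg muscle 1 was highest for HPRT1 (23.2 CPM) and npy (3.81 CPM), leg muscle 2 for CRYAB (856 CPM) and leg muscle 4 for myf5 (25.3 CPM). Those of these genes that were called were also called with each leg muscle library left out in turn.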

How the results depend on the processing

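The scaling mattered most. On library totals alone 8805 transcripts were higher in brain and 930 in leg muscle, and 204 leg muscle calls turned to brain. With the 20 most abundant transcripts left out and library totals alone, leg muscle had 1889. Lists with more members higher in brain went from 16 to 24 of 39 on library totals alone and lay between 14 and 18 elsewhere. The genes that turned on library totals alone were CRY2 (Log2FC 0.67), nr3c1 (0.036), HK1 (1.39) and HSP90AB1 (1.76), of which the last 2 were then called higher in brain. Tested against a fold of 2, leg muscle had 1952 calls. Leaving out each library in turn gave 2987 to 3991 transcripts higher in brain and 1907 to 3073 in leg muscle, the lowest without brain 1, where the lone brain is assumed to vary like the other tissues. DESeq2 gave 3998 and 3578. With the 20 most abundant left out and TMM, 5 paralog pairs switched, as some of their muscle forms were among those left out. The leg muscle share of 48.4% in the top 10 was 13.1% in the top 1, 58.7% in the top 20 and 66.3% in the top 50. With brain and leg muscle fitted alone, 3588 transcripts were higher in brain and 3007 in leg muscle. With leg muscle 5 also left out of that fit, chosen after seeing the data, 3901 and 2890 were called. The steroid list had more calls in leg muscle with stricter filters (3 against 2). With the replicate block 3646 transcripts were higher in brain and 2834 in leg muscle, and the cell cycle list turned (3 against 1). The deviations of same-numbered libraries correlated at 0.095 and 0.271, and those of brain 1 and leg muscle 4 at 0.113. With 2 brains the deviations are exact opposites, and only 2 numbers are shared, so this can neither show nor exclude pairing. Of 150 genes named, 112 kept their call under every alternative that could be fitted, and counts summed per gene were not run for single genes.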
